A study of Homo sapiens with 8 samples.

Results

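The genes described here encode the nuclear subunits of the mitochondrial respiratory chain and of ATP synthase, measured in TRAIL-sensitive and TRAIL-resistant H460 cells. H460 is an established human lung cancer cell line, and TRAIL is a death ligand of the tumour necrosis factor family. Members were chosen by platform symbol alone (NDUFA, NDUFB, NDUFC, NDUFS and NDUFV genes, SDHA to SDHD, UQCR genes, CYC1, COX4I to COX8 and ATP5 genes), without assembly factors and pseudogenes, a rule that uses no measured value. This gave 76 genes of 19775 tested: 31 of complex I, 3 of complex II, 7 of complex III, 17 of complex IV and 18 of complex V. A further 5 genes were seen only by probe sets that carry several symbols and were not used, and other subunits are not analysed here.

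Biotin-labelled total RNA was hybridised to 8 Affymetrix arrays. The sensitive group (4 arrays) was the control line without a stated treatment, and the resistant group (4 arrays) had received TRAIL daily over 6 months at doses described as subtoxic and was then found resistant. Both groups were grown in the same serum-supplemented RPMI medium. The labels name a single derivation of resistant cells and leave unsaid whether each array had its own culture. The p-values therefore cover the array-to-array spread alone, possibly a technical one, and resistance cannot be told apart from other changes during long culture.

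Complex I takes electrons from NADH, complex II takes them from succinate, and both pass them to ubiquinone. Complex III moves them on to cytochrome c and complex IV to oxygen, while complexes I, III and IV pump protons across the inner mitochondrial membrane. Complex V, ATP synthase, lets the protons flow back through a rotating ring and makes ATP. Mitochondrial DNA encodes a small core of complexes I, III, IV and V, and nuclear genes, among them those described here, encode the other subunits. Nuclear respiratory factor 1 (NRF1), the ETS factor GABP and YY1 are known binders of many of their promoters.

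Resistant cells had higher signals for many complex I subunits, for a few small subunits of complexes III and V, and for a single subunit of complex IV. Levels are given as log2(signal + 1), and changes are resistant minus sensitive on that scale. A gene was counted as risen or fallen at a Benjamini-Hochberg adjusted limma p below 0.05, adjusted over all 19775 genes. Of the 76 genes, 22 rose (28.9%), 5 fell (6.58%) and 49 did not pass. Over all genes tested, 30.3% passed, 14.7% upwards and 15.6% downwards. Of the 11641 genes above the median probe set, where 70 of the 76 lie, 23.3% rose and 23.9% fell. The median change of the 76 genes was 0.18, against -0.03 over all genes, and 51 of the 76 changes were positive. Changes were small: the 27 that passed ranged from 1.23-fold to 1.93-fold with a median of 1.36-fold, and none reached 2-fold, which 7.75% of all genes passed. In 33 genes all 4 resistant arrays lay above all 4 sensitive arrays, and in 5 they lay below. Over all genes these shares were 16.5% and 17.4%. Leaving out resistant array 4 changed the counts to 18 risen and 8 fallen. RNA came from whole cultures, so fewer cells with a transcript and less of it per cell cannot be told apart.

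**Figure D1:**
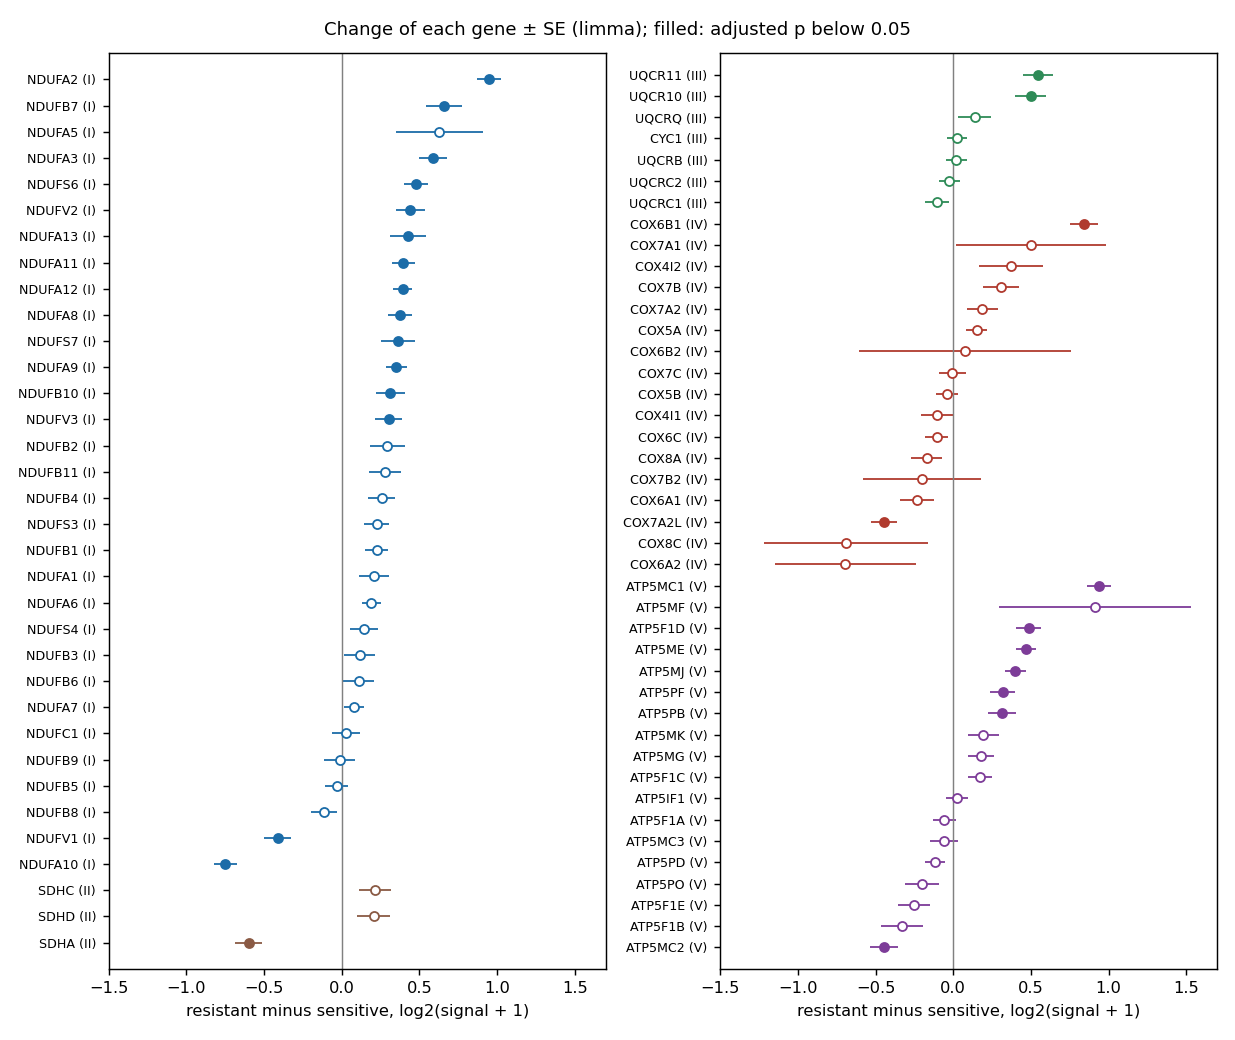
Change of each of the 76 genes, resistant minus sensitive in log2(signal + 1), as a point with its limma standard error (4 arrays per group). Filled points passed at an adjusted p below 0.05, and colours and Roman numerals give the complex. Filled points of complex I lie mostly to the right of 0, with NDUFA2 at 0.95 and NDUFA10 at -0.75 at its ends.

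As examples of promoters with the NRF1 letters, the 250 bases before the RefSeq start (GRCh38.p14) are printed for 3 genes that rose and for SDHA, which fell. They do not stand for the whole list, since 16 of 64 promoters held the NRF1 letters in the wider window counted below. UQCR11 (chr19:1605463-1605712, minus strand), NDUFA3 (chr19:54102605-54102854, plus strand), ATP5ME (chr4:674277-674526, minus strand) and SDHA (chr5:218070-218319, plus strand) each hold in this stretch the NRF1 letters, which are GCGC, any base and then TGCGC. Capitals mark those matches, and in UQCR11 also matches to the ETS letters CCGGAAG, on either strand.
UQCR11: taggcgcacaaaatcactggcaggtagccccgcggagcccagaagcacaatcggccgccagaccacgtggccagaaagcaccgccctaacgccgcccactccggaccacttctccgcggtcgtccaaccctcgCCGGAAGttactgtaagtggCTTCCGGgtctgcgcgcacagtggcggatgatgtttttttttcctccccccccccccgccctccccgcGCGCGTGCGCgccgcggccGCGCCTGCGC
NDUFA3: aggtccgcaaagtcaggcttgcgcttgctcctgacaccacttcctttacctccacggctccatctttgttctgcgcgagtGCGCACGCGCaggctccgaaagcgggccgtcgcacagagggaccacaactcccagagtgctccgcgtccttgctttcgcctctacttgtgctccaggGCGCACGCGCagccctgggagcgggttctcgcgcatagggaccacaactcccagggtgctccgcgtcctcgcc
ATP5ME: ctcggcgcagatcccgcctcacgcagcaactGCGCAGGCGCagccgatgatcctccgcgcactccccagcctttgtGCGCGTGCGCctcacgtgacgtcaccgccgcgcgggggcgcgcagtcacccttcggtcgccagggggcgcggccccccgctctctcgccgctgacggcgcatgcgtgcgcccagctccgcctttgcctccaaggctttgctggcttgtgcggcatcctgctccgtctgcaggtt
SDHA: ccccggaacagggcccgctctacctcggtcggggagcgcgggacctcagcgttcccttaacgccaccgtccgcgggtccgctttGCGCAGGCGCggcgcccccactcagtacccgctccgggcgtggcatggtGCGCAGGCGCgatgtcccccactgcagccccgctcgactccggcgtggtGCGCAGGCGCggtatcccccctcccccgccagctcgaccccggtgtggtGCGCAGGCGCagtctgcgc
In SDHA the 4 matches begin at -166, -117, -68 and -19 from the start, and in UQCR11 the 2 matches begin at -29 and -10. The promoters of a pair of ATP synthase c-subunit genes that moved in opposite directions, ATP5MC1 (chr17:48892537-48892786, plus strand) and ATP5MC2 (chr12:53676084-53676333, minus strand), have no match to these letters in the stretch shown and so no capitals.
ATP5MC1: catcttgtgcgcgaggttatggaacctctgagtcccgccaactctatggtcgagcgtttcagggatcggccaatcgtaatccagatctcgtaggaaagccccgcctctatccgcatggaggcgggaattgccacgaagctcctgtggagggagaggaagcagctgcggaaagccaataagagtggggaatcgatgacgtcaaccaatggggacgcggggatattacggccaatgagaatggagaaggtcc
ATP5MC2: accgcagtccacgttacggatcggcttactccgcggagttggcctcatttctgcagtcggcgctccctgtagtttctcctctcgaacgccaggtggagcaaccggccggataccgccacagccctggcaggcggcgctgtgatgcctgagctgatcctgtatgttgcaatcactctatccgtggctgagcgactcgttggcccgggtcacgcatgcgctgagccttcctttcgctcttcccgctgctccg

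The NRF1, ETS and YY1 letters were counted in windows of 300 bases (250 before to 50 after the start) on both strands, with overlapping matches of different motifs kept and a place that reads alike on both strands counted as 1. RefSeq promoters were matched for 64 of the 76 genes. The NRF1 letters stood in 25.0% of these windows, against 8.78% of the 15384 promoters of genes tested and 6.29% of all 27305 promoters. The ETS letters CCGGAAG stood in 26.6%, against 14.4% and 10.7%. The YY1 letters AAGATGGC stood in 15.6%, against 4.0% and 3.03%. The NRF1 letters were present in 9 of 21 promoters of genes that rose, 1 of 5 that fell and 6 of 38 that did not pass. The ETS letters were present in 6 of 21, 0 of 5 and 11 of 38 in the same order. Promoters with the NRF1 letters thus occurred among genes of each outcome, and a match of letters is a description and not a site of binding.

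Complex I accounted for most of the rises. Of its 31 genes, 13 rose, 2 fell and 26 had a positive change, with a median of 0.28. All 4 resistant arrays lay above the sensitive arrays in 19 of the 31 genes. NDUFA2, an accessory subunit of the NADH-oxidising arm, gave 10.37, 10.31, 10.26 and 10.33 on the sensitive arrays and 11.18, 11.19, 11.26 and 11.42 on the resistant arrays. The groups did not overlap, and the change was 0.95 ± 0.08 (SE), 1.93-fold (adjusted p = 1.6e-04). NDUFA2 has a second probe set of low signal whose change was 0.07 ± 0.19 and did not pass. NDUFB7, a subunit on the intermembrane space side, gave 8.75, 8.62, 8.69 and 8.34 on the sensitive arrays. Its resistant arrays gave 9.41, 9.15, 9.32 and 9.14, again without overlap, a change of 0.66 ± 0.12 (adjusted p = 0.0047). A dimmer NDUFB7 probe set moved by -0.10 and did not pass.

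NDUFA3, a small subunit of the membrane arm, gave 10.12, 9.86, 9.95 and 9.97 on the sensitive arrays and 10.46, 10.52, 10.55 and 10.72 on the resistant arrays. The groups did not overlap, and the change was 0.59 ± 0.09 (adjusted p = 0.0025). Its only probe set was the one used. NDUFA10, a membrane arm subunit with a fold related to nucleoside kinases, went the opposite way and had the largest fall of any member that passed. It gave 11.32, 11.13, 11.20 and 11.24 on the sensitive arrays and 10.55, 10.38, 10.47 and 10.51 on the resistant arrays. These groups did not overlap either, and the change was -0.75 ± 0.08 (adjusted p = 3.5e-04). All 5 of its probe sets had a negative change, and a second of them also passed.

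**Figure D2:**
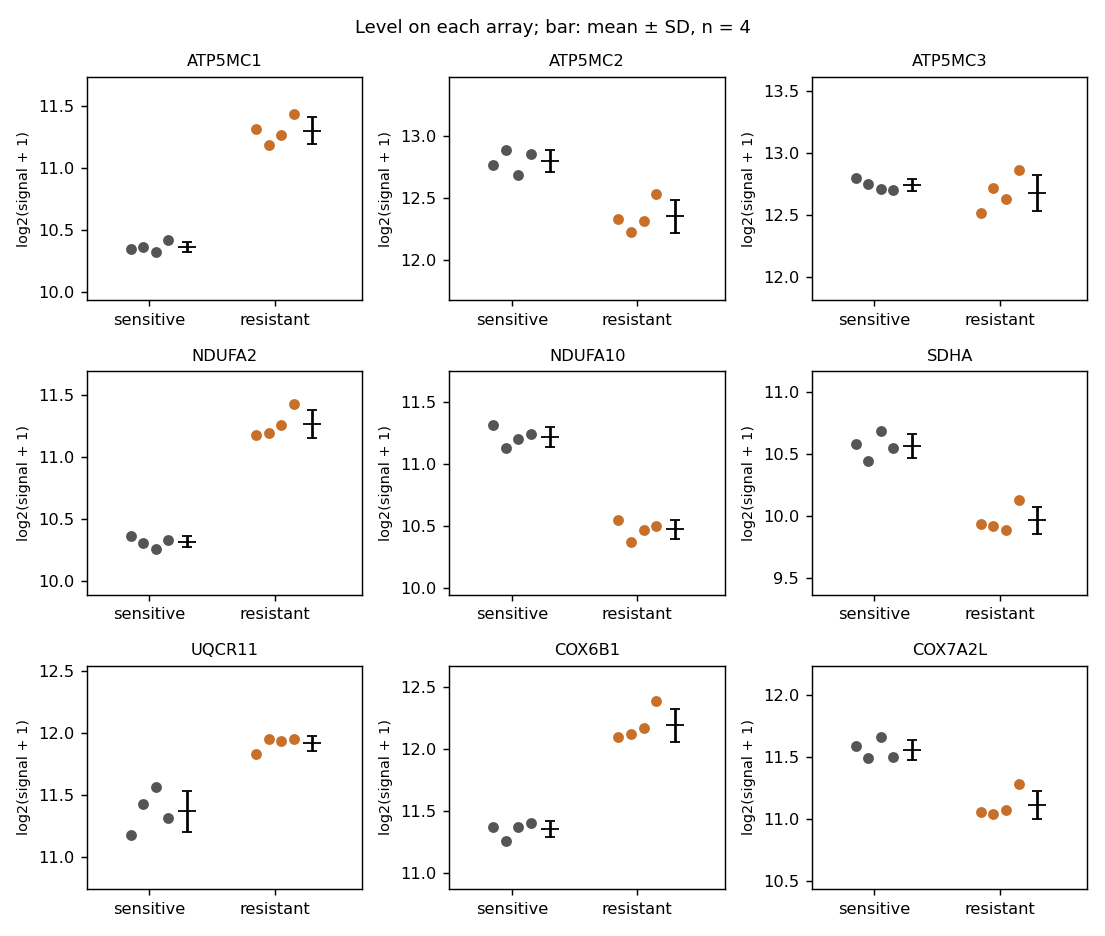
Level of 9 genes on each array in log2(signal + 1), with grey points for sensitive and orange points for resistant arrays and a bar for the mean ± SD (n = 4). The vertical axes differ in position but span the same range. In 8 of the 9 panels the groups do not overlap, and in that of ATP5MC3 they do.

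By role, the 4 nuclear core genes of complex I that were measured gave 2 rises and 1 fall. NDUFV2, an iron-sulphur subunit of the NADH-oxidising module, rose by 0.44 ± 0.09, and NDUFS7, which hands electrons to ubiquinone, rose by 0.36 ± 0.11. NDUFV1, which binds NADH and the flavin in the same module as NDUFV2, fell by 0.41 (SE 0.09). NDUFS3, another core subunit, had a change of 0.22 ± 0.08 that did not pass. The direction of NDUFV1 rests on its bright probe set: a dim probe set below the median signal rose by 1.02, and the mean of both gave 0.31 (adjusted p = 0.0859).

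Of 12 NDUFA genes, 7 rose and 1 fell. Besides NDUFA2 and NDUFA3 these were NDUFA13 (0.42), NDUFA11 (0.40), NDUFA12 (0.39), NDUFA8 (0.38) and NDUFA9 (0.35). NDUFA9 is a subunit of the ubiquinone-binding arm, and NDUFA13 is also known as GRIM-19, a factor first found in interferon- and retinoid-induced cell death. NDUFA5 had a change of 0.63 with a standard error of 0.28 and did not pass (adjusted p = 0.144). Without resistant array 4 its change was 0.85 and passed (adjusted p = 0.0347). Of 11 NDUFB genes of the membrane arm, 2 rose, NDUFB7 and NDUFB10 (0.31), and none fell. NDUFS6, a zinc-binding subunit, rose by 0.48, and NDUFV3 rose by 0.30. The calls of NDUFB10 and NDUFV3 were lost whichever array was left out, with adjusted p up to 0.102 and 0.0885. In the limma fit over all probe sets, another probe set above the median rose for NDUFB10 (0.61) and NDUFV3 (1.06). There the probe sets used here did not pass (adjusted p = 0.0914 and 0.0801). The NDUFS7 call was lost for every array left out but sensitive array 4 (up to 0.106). That of NDUFA13 was lost without sensitive array 3 or any 1 of the resistant arrays (up to 0.0769).

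Complex II was measured by 3 genes. SDHA, the flavoprotein that oxidises succinate, gave 10.58, 10.45, 10.68 and 10.55 on the sensitive arrays and 9.93, 9.92, 9.88 and 10.12 on the resistant arrays. The groups did not overlap, and the change was -0.60 ± 0.09 (adjusted p = 0.0018). Its probe set carries the suffix for probes that match several transcripts, and SDHA has near-identical copies in the genome, so this value may include their signal. The membrane anchors SDHC and SDHD each had a change of 0.21 that did not pass. SDHA thus fell while 13 of the 31 genes of complex I, which feeds the same ubiquinone pool, rose.

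In complex III, 2 of 7 genes rose, both small accessory subunits, and none fell. UQCR11 gave 11.18, 11.43, 11.57 and 11.32 on the sensitive arrays and 11.83, 11.95, 11.93 and 11.95 on the resistant arrays. The change was 0.55 ± 0.10 without overlap (adjusted p = 0.0049), and its second probe set rose by 1.63. UQCR10 gave 11.79, 11.98, 11.97 and 12.10 on the sensitive arrays. Its resistant arrays gave 12.38, 12.41, 12.39 and 12.64, all above the sensitive ones, a change of 0.50 ± 0.10 (adjusted p = 0.0078). A dimmer UQCR10 probe set moved by -0.14 and did not pass. CYC1, the cytochrome c1 subunit, had a change of 0.02, and UQCRC1 and UQCRC2, the large core proteins, had changes of -0.10 and -0.03. None of these passed, and the complex III median was 0.02.

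Complex IV showed few calls: 1 of 17 genes rose, 1 fell, and the median change was -0.04. COX6B1, which faces the intermembrane space at the cytochrome c side, gave 11.37, 11.25, 11.37 and 11.40 on the sensitive arrays and 12.10, 12.12, 12.16 and 12.38 on the resistant arrays. The change was 0.84 ± 0.09 without overlap (adjusted p = 4.1e-04). COX7A2L, which takes part in joining complexes III and IV into supercomplexes, gave 11.59, 11.49, 11.66 and 11.50 on the sensitive arrays. On the resistant arrays it gave 11.06, 11.05, 11.08 and 11.28, all lower, a change of -0.44 ± 0.08 (adjusted p = 0.0062).

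Several complex IV subunits exist as a general form and a tissue form. The 6 tissue forms (COX4I2, COX6A2, COX6B2, COX7A1, COX7B2 and COX8C) gave array values of 0.461 to 6.07, mostly near or under the median probe set of the arrays (5.01), and none passed. COX4I2 gave 5.06, 5.17, 5.90 and 5.35 on the sensitive arrays and 5.60, 5.59, 6.07 and 5.70 on the resistant arrays, which overlap. COX6A2, a heart and muscle form, gave 5.79, 5.28, 4.37 and 3.84 on the sensitive arrays and 4.76, 3.71, 3.99 and 4.03 on the resistant arrays, which overlap as well. COX6B2, a testis form, ranged from 3.41 to 5.54 on the sensitive arrays and from 3.44 to 5.60 on the resistant arrays. COX7A1, another heart and muscle form, ranged from 0.70 to 2.26 and from 1.14 to 3.10 in the same order. COX7B2 ranged from 3.52 to 4.45 and from 3.09 to 4.58, and COX8C from 0.51 to 3.02 and from 0.46 to 1.65. At these signals neither a change nor its absence can be read.

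The 11 other complex IV genes gave array values of 11.05 to 13.61. COX4I1, the general form of subunit 4, gave 12.97, 12.73, 12.77 and 12.73 on the sensitive arrays and 12.63, 12.61, 12.62 and 12.93 on the resistant arrays. Its change was -0.10 ± 0.11, and resistant array 4 lay apart from the other 3 resistant arrays. COX6A1 gave 13.61, 13.45, 13.42 and 13.44 against 13.11, 13.29, 13.09 and 13.49, a change of -0.23 ± 0.11. COX8A gave 12.49, 12.42, 12.59 and 12.53 against 12.21, 12.25, 12.29 and 12.58, a change of -0.17 ± 0.10. In these 3 genes the groups overlapped through resistant array 4, and none passed. Without that array COX6A1 (-0.32, adjusted p = 0.0418) and COX8A (-0.25, adjusted p = 0.0439) passed as lower. COX7A2 (0.19 ± 0.10) also overlapped and did not pass. COX7B gave 12.95, 12.73, 12.90 and 12.83 against 13.06, 13.13, 13.01 and 13.45. Its groups did not overlap, but the change of 0.31 ± 0.12 did not pass (adjusted p = 0.0885).

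In ATP synthase, 6 of 18 genes rose and 1 fell, with a median of 0.18. The proton-carrying ring is built from subunit c, which 3 genes encode as the same mature protein with different import sequences. ATP5MC1 gave 10.35, 10.36, 10.32 and 10.41 on the sensitive arrays and 11.32, 11.18, 11.27 and 11.44 on the resistant arrays. The groups did not overlap, and the change was 0.94 ± 0.08 (adjusted p = 1.5e-04). ATP5MC2 gave 12.77, 12.89, 12.68 and 12.86 on the sensitive arrays and 12.33, 12.23, 12.32 and 12.53 on the resistant arrays. It moved the opposite way, again without overlap, with a change of -0.45 ± 0.09 (adjusted p = 0.0089). A dim second probe set of ATP5MC2 moved by -0.06 and did not pass. ATP5MC3 gave 12.80, 12.76, 12.72 and 12.71 against 12.52, 12.72, 12.63 and 12.86. These values overlapped, and the change of -0.06 ± 0.09 did not pass.

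The difference between the c-subunit genes was compared within each array, which removes the scaling of the array. ATP5MC1 minus ATP5MC2 lay between -2.52 and -2.36 on the sensitive arrays and between -1.10 and -1.01 on the resistant arrays, a shift of 1.39. ATP5MC1 minus ATP5MC3 shifted by 1.0, and ATP5MC3 minus ATP5MC2 by 0.39. In each of these 3 pairs the groups did not overlap. The exact two-sided permutation p was 0.0286, the lowest that 4 against 4 arrays allow, and 0.0286 after adjustment over the 3 pairs. For ATP5MC1 and ATP5MC2 that outcome was fixed by their separate values, which already lay apart in opposite directions. The separate ranges of ATP5MC1 and ATP5MC3 fixed the outcome of their pair as well. Neither outcome adds support. The probes of these genes differ, so the values show unequal change and not which transcript was the more abundant.

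Other ATP synthase genes that rose encode parts of the stalks and small membrane subunits. ATP5F1D, subunit delta of the central stalk, gave 10.40, 10.47, 10.32 and 10.60 on the sensitive arrays and 10.92, 10.93, 10.88 and 10.99 on the resistant arrays. The groups did not overlap (change 0.48 ± 0.08, adjusted p = 0.0034), and its second probe set rose by 0.57. ATP5ME, subunit e at the dimer interface, gave 11.50, 11.64, 11.54 and 11.60 against 12.00, 12.05, 12.02 and 12.07. These values did not overlap either, and the change was 0.47 ± 0.06 (adjusted p = 0.0015). ATP5MJ, another small membrane subunit, rose by 0.40, and the peripheral stalk subunits ATP5PF and ATP5PB rose by 0.32 and 0.31. The ATP5PF call was lost without sensitive array 3 or resistant array 1, 2 or 3 (adjusted p up to 0.0666), and the ATP5PB call without any 1 array other than sensitive array 1 or resistant array 2 (up to 0.0927). The catalytic head subunits ATP5F1A and ATP5F1B had changes of -0.06 ± 0.07 and -0.33 ± 0.14 that did not pass. Without resistant array 4 the ATP5F1B change was -0.45 and passed (adjusted p = 0.0102). ATP5IF1, the inhibitor of the enzyme and not a subunit, had a change of 0.02 and did not pass. ATP5MF was seen only by a dim probe set, and its change of 0.91 did not pass.

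**Figure D3:**
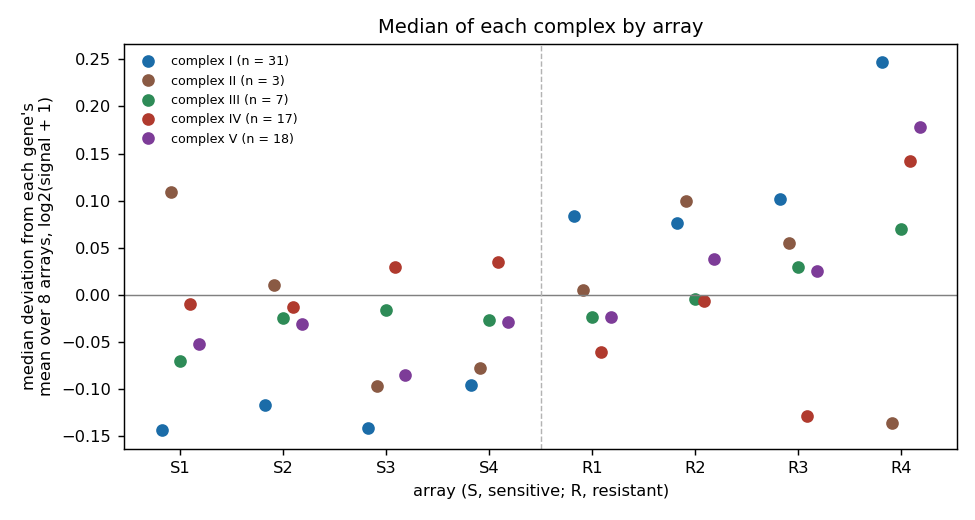
Median deviation of the genes of each complex from their own mean over all 8 arrays, in log2(signal + 1), for sensitive arrays S1 to S4 and resistant arrays R1 to R4. Complex I lies between -0.14 and -0.10 on the sensitive arrays and between 0.08 and 0.25 on the resistant arrays, with array R4 highest. Complex II has 3 genes only.

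Higher complex I signals were visible on each resistant array. Its median deviation from the mean over all arrays ran from -0.14 to -0.10 on the sensitive arrays and from 0.08 to 0.25 on the resistant arrays. Resistant array 4 stood apart: the median deviation of all 76 genes was 0.201 there and 0.040 to 0.059 on the other 3 resistant arrays. Without that array the complex I median was 0.20 and 10 of its genes rose. Without sensitive array 1 and resistant array 4 the median of the 76 genes was 0.12, with 19 risen and 6 fallen.

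Subunit transcripts are among the brightest on the array, and bright genes as a whole differed between the groups. Of the 76 genes, 70 lay above the median probe set. Among all genes between the 90th and 95th percentile of mean level, 36.1% rose and 24.1% fell, and among the 17 members there 7 rose and 3 fell. Between the 95th and 98th percentile 34.7% of all genes rose and 24.8% fell, and among the 24 members 11 rose and 1 fell. Above the 98th percentile 13.6% of all genes rose and 22.7% fell, with a median of -0.14. In that range 2 of 24 members rose and 1 fell, with a median of -0.02. It holds 8 of the 17 complex IV genes and 10 of the 18 complex V genes but 3 of the 31 of complex I. The share of rises among members with signals from the 90th to the 95th percentile was thus close to that of other genes as bright. The part of brightness in the difference between complexes was not tested.

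**Figure D4:**
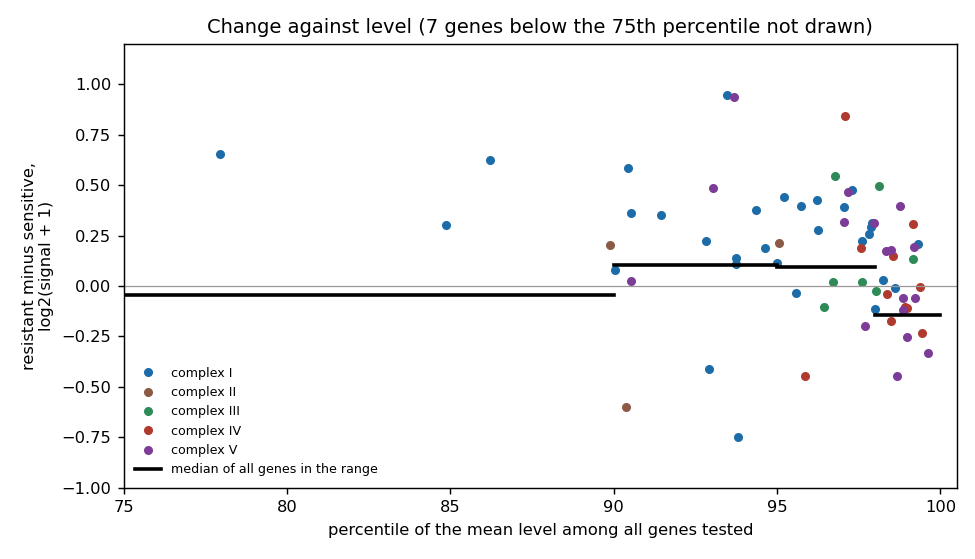
Change of each gene (resistant minus sensitive, log2(signal + 1)) against the percentile of its mean level among all 19775 genes, coloured by complex, with black lines for the median of all genes in each range of level. The 7 genes below the 75th percentile are not drawn. The line for the brightest range lies at -0.14, where 8 of 17 complex IV genes and 10 of 18 complex V genes sit.

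Rises were unevenly spread over the chromosomes. Chromosome 19 holds 11 of the 76 genes, of which 8 rose (NDUFA3, NDUFA11, NDUFA13, NDUFB7, NDUFS7, UQCR11, COX6B1 and ATP5F1D) and 0 fell, with a median change of 0.48. Of all 1320 genes tested there 17.2% rose and 9.24% fell, and of its 79 genes at or above the 90th percentile of level 46.8% rose. The other 65 members had 14 rises and a median of 0.14. The 10 tested genes on each side of these 8 members, in the gene order of GRCh38.p14, differed in their calls. Of 20 neighbours, 9 rose around ATP5F1D, 9 around UQCR11, 8 around NDUFS7, 6 around NDUFB7 and 5 around NDUFA13. Only 2 rose around NDUFA3 and 1 each around NDUFA11 and COX6B1. ATP5F1D and NDUFS7 lie within each other's neighbourhood, so their counts share genes. Chromosome 2 holds 5 members, of which 0 rose and 2 fell (NDUFA10 and COX7A2L). Of all its genes 25.3% fell, and of its 160 genes at or above the 90th percentile of level 38.75% fell. Around NDUFA10, 7 of 20 neighbours fell and 1 rose, and around COX7A2L 3 fell and 3 rose. The part of chromosome position in these changes was not tested.

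Probe sets of a gene mostly had the same sign. Over all probe sets 19.5% passed, and of the 146 probe sets of members 26 rose and 6 fell. In 32 members with at least 2 probe sets above the median, 23 had changes of a single sign and 9 had both signs, and in none did such probe sets pass in opposite directions. ATP5MJ, like UQCR11 and ATP5F1D, rose on both of its probe sets. For NDUFB2, SDHC and ATP5IF1, which did not pass, another probe set above the median rose, by 0.53, 0.50 and 0.62.

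Factors that build the complexes rose at a higher share than the subunits, without a test of that difference. The list of 54 holds the inhibitor ATP5IF1, which is also among the 76 genes; without it 22 of 53 assembly factors rose and 3 fell, with a median of 0.26. Those of complex I gave 10 rises among 18 and no fall. Those of complex IV gave 8 rises and 1 fall among 21, beside 1 rise among the 17 genes for its subunits. The 4 largest changes that passed all belonged to complex IV assembly. PET100, a chaperone of early assembly, gave 8.57, 8.52, 8.44 and 8.61 on the sensitive arrays and 9.63, 9.71, 9.69 and 9.84 on the resistant arrays, a change of 1.19 ± 0.08 without overlap (adjusted p = 5.7e-05). SCO2, a copper chaperone, rose by 1.12 ± 0.08, COA3, which binds the newly made core subunit, by 1.12 ± 0.07, and COA7, a further assembly protein, by 1.11 ± 0.15. TMEM70, needed for ATP synthase assembly, rose by 1.09. The falls were SDHAF4 of complex II (-0.42), TTC19 of complex III (-0.47) and COX20 of complex IV (-0.79); they and TMEM70 were named after their values were seen.

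**Figure D5:**
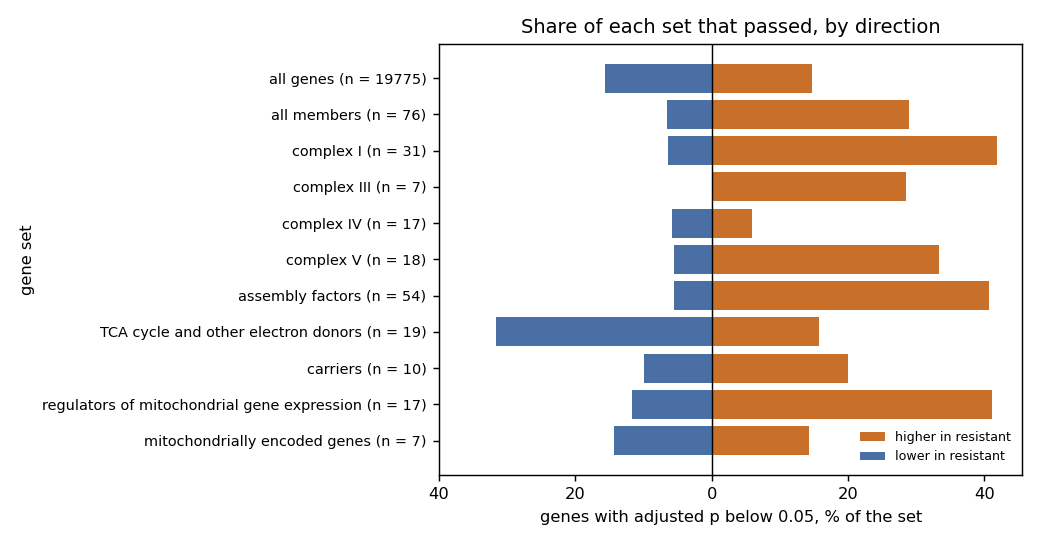
Share of each gene set, in percent, with an adjusted p below 0.05, drawn to the right for genes higher in resistant cells and to the left for genes lower. Complex II, with 3 genes, is not drawn. Complex I, assembly factors (with ATP5IF1) and regulators have rising shares of 41.9%, 40.7% and 41.2%, against 14.7% of all genes. The TCA cycle and donor genes have a falling share of 31.6%. The sets are not matched for level. Of all genes, 36.1% rose between the 90th and 95th percentile of level, 34.7% between the 95th and 98th, and 13.6% above.

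The list of the TCA cycle and other electron donors had more falls than rises. Of its 19 measured genes, 3 rose (15.8%) and 6 fell (31.6%), with a median of -0.02. Over all genes 14.7% rose and 15.6% fell. The list also holds CYCS, which is cytochrome c and was among the rises (0.35), and NDUFAB1 (0.31), which did not pass. Neither feeds electrons into the chain. The largest changes that passed were those of GPD2, ETFDH, SUCLG2 and IDH3A. GPD2, the mitochondrial glycerol phosphate dehydrogenase, gave 10.42, 10.57, 10.56 and 10.66 on the sensitive arrays. On the resistant arrays it gave 9.82, 9.73, 9.93 and 9.78, all lower, a change of -0.74 ± 0.08 (adjusted p = 5.7e-04). ETFDH, which passes electrons from fatty acid oxidation to ubiquinone, fell by 0.54, and SUCLG2, a subunit of succinyl-CoA ligase, fell by 0.47. IDH3A, a subunit of isocitrate dehydrogenase, rose by 0.44. Other subunits of that enzyme were looked up for this reason: IDH3G fell by 0.42 (limma adjusted p = 0.0021), and IDH3B (0.18) did not pass. Of the same list 1 gene passed as higher without sensitive array 1, 2 or 3 or without resistant array 2, while 5 or 6 genes fell in those fits. DHODH (-0.22 ± 0.08) and SQOR (-0.57 ± 0.20), which like GPD2 and ETFDH pass electrons to ubiquinone, did not pass.

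Of 10 carriers of ATP, ADP, phosphate or protons and outer membrane channels that were measured, 2 rose and 1 fell. These shares were 20% and 10%, against 14.7% and 15.6% of all genes. SLC25A14, an uncoupling protein relative, rose by 0.91 ± 0.15, and VDAC3, an outer membrane channel, by 0.28 ± 0.07. SLC25A27, another uncoupling protein relative with a level near the median probe set, fell by 1.31 (SE 0.21). Without resistant array 4, 2 carriers rose and 3 fell.

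Of 17 regulators of mitochondrial gene expression 7 rose (41.2%) and 2 fell (11.8%), against 14.7% and 15.6% of all genes. PPARGC1B, a coactivator of mitochondrial genes, gave 6.00, 5.64, 5.84 and 6.11 on the sensitive arrays and 7.81, 7.44, 8.08 and 7.33 on the resistant arrays. The groups did not overlap, and the change was 1.77 ± 0.19 (adjusted p = 4.8e-04). TWNK, the helicase of mitochondrial DNA, rose by 1.33, PPRC1, another coactivator of this family, by 1.30, and TFB2M, a mitochondrial transcription factor, by 1.26. TFB2M lost its call when all its probe sets were averaged (0.12, adjusted p = 0.858). PPARGC1A and TFB1M fell by 1.19 and 0.99; both were picked out after their values were seen. PPARGC1A gave 5.18, 5.10, 5.53 and 5.57 against 3.72, 3.75, 4.48 and 4.65, levels near or under the median probe set. PPARGC1A and PPARGC1B, which are close relatives, thus moved in opposite directions. The factors named for the promoters, with ESRRA, were looked up for that role: NRF1 (0.08), GABPA (0.12), ESRRA (0.18) and YY1 (0.07) did not pass.

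Of the mitochondrially encoded subunits 7 were measured, with a median of -0.09. COX3 rose by 0.45 ± 0.09 and COX1 fell by 0.52 (SE 0.16, adjusted p = 0.0461). The COX3 probe set carries the suffix for probes that match several transcripts, so its value may include other signal. Its level was 9.69 on the sensitive and 10.14 on the resistant arrays, against 14.55 and 14.02 for COX1. On the resistant arrays COX1 gave 13.80, 14.00, 13.81 and 14.49, the last within the sensitive range of 14.48 to 14.66. The COX1 call was lost under quantile normalization (-0.11, adjusted p = 0.290), and the median of the 7 genes then became 0.23. The COX1 call was also lost when any 1 array other than resistant array 4 was left out (adjusted p 0.0819 to 0.115). Without resistant array 4, 1 of the 7 genes rose and 3 fell, with a median of -0.24.

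The arrays gave the cell type as follows. Of 6 epithelial markers, KRT8 (11.4 in both groups) and KRT18 (13.2 and 13.1) were high, as in an epithelial line, while the epithelial adhesion genes EPCAM (4.40 and 3.83) and CDH1 (2.43 and 2.29) were under the median probe set in both groups. KRT19 fell by 1.24 and KRT7 by 0.37, and all 6 changes were negative. Their summed signal was 17312 to 20119 on the sensitive arrays and 13622 to 16353 on the resistant arrays. No marker of leukocytes (3), endothelium (4) or striated muscle (4) passed. Among these only CD14 (6.47 and 6.67) and PECAM1 (6.14 and 5.73) had levels above the median probe set. Of 6 fibroblast markers LUM fell by 3.27 (from 5.75 to 2.48) and PDGFRB by 1.12 (from 5.94 to 4.82). COL3A1 (9.96 and 9.95) and COL1A1 (7.66 and 7.30) were above the median probe set in both groups and did not pass. COL1A2 (change 0.30) and DCN (-1.17) did not pass either. The summed signal of the 6 fibroblast markers was 1299 to 1465 on the sensitive arrays and 1168 to 1293 on the resistant arrays, with no marker at 0. The part of either marker list in the results was not tested. The mean correlation of each array with the other arrays of its own group was 0.955 to 0.965. With the arrays of the other group it was 0.937 to 0.942. The 3' minus 5' difference of the ACTB control fell from 0.230 to 0.112 (exact permutation p = 0.0286, 0.114 after adjustment over 4 array measures). It was 0.226 to 0.231 on the sensitive arrays and 0.102 to 0.133 on the resistant arrays, without overlap. That p is the lowest that 4 against 4 arrays allow, so the adjusted value could not pass for 1 such measure alone. The GAPDH difference did not pass (p = 0.686, exact permutation). The part of either difference in the results was not tested.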

How the data were processed

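Per the labels' protocols, RNA was extracted with Trizol and labelled with an Enzo kit. The deposited files hold intensity on a linear scale for 54675 probe sets, of which 62 are controls. RMA is named in the submitters' processing notes without a version, but every array has a mean of 200 after trimming 2% at each end, a form usual for MAS 5-type signals, so how the authors made the intensity values is not settled. Each array being scaled to 1 mean, total RNA per cell cannot be seen. The deposited intensity values were turned into log2(signal + 1) (pseudocount 1), which understates changes of dim genes. Arrays have no read depth, and 4 arrays per group limit the precision.

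Each gene was read from its brightest probe set on average over 8 arrays, named through the platform annotation (41097 probe sets with 1 symbol, 1801 with several and left unnamed, 11777 not in it) and the RefSeq table of GRCh38.p14, which matched 41037. Groups were compared with limma 3.58.1 in R 4.3.3 (lmFit, eBayes), and the fit was tested on simulated data. Promoters were matched for 64 of 76 genes, and 12 had no entry. Values of every array are given for the 4 members per complex with the largest change that passed and for the isoform sets of complex IV and the c subunit; of other lists up to 4 genes are named, with any exception stated. Members and lists were chosen with earlier results of these data known. Alternatives were another pseudocount (16), quantile normalization, median centring, other probe set rules, other variance models and arrays left out.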

Additional observations from a re-analysis of the deposited data

Results flagged for a closer look

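Within 25 genes shown by array and 11 array measures, 72 groups of 4 arrays were examined, and in 10 of them a single array lay far from the other 3. Chance alone gives about 1 in 20 such groups. Resistant array 4 was the outlying array in 6 of the 10. Its UQCR10 level was 12.64 (others 12.38 to 12.41), COX7A2L 11.28 (11.05 to 11.08) and COX4I1 12.93 (12.61 to 12.63). The median deviation of complex I was 0.247 there (0.077 to 0.102), that of all 76 genes 0.201 (0.040 to 0.059), and its correlation with its own group 0.959 (0.965 on each of the others). Resistant array 1 had a UQCR11 level of 11.83 (others 11.93 to 11.95), and sensitive array 1 a COX6A1 level of 13.61 (13.42 to 13.45). The 3' minus 5' difference of ACTB was 0.226 on sensitive array 3 (0.231 on each of the others) and 0.133 on resistant array 2 (0.102 to 0.107).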

How the results depend on the processing

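The median change of the 76 genes stayed positive under every alternative run, and it moved to 0.26 with median centring and to 0.12 without sensitive array 1 and resistant array 4, a choice made after seeing the data. With each array left out in turn, 16 to 19 genes rose, 5 to 8 fell (8 without resistant array 4) and the median was 0.13 to 0.20. Of the 22 rises, 16 held in each of these fits, and 6 were lost in some (NDUFA13, NDUFS7, NDUFB10, NDUFV3, ATP5PF and ATP5PB); all 5 falls held. With probe sets without a suffix, which cover 63 of the genes, 14 rose and 3 fell. With the mean of all probe sets 2 fell, and with a trended, robust prior 33 rose and 8 fell. The replicate block gave 14 rises and 5 falls. Same-numbered arrays did not deviate together (correlations of -0.025, 0.005, 0.012 and -0.019), so the numbers give no pairing. Signs turned for NDUFB7 (-0.10) and UQCR10 (-0.14) with probe sets without a suffix and for NDUFV1 (0.31) with the mean of all probe sets, because other, dimmer probe sets then stand for the gene; none of these passed. Quantile normalization gave 28 rises and 5 falls, and median centring 29 and 4. Signals near the background limit what the dim tissue forms of complex IV and ATP5MF can show.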
